A study of Homo sapiens with 16 samples.

Results

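The kinase complex mTORC1 couples growth to nutrients, energy and oxygen, and cells under stress restrain it through a small set of inhibitors. *SESN1*, *SESN2* and *SESN3* encode the sestrins, which bind GATOR2 and, when leucine is low, keep the Rag GTPases from calling mTORC1 to the lysosome. *CASTOR2* encodes a relative of the arginine sensor CASTOR1 that pairs with it, and these proteins also bind GATOR2. *DDIT4* (also called REDD1) is an inhibitor of mTORC1 known for its induction by hypoxia and by the integrated stress response, and it acts through the TSC complex. *TSC1* and *TSC2* encode the 2 main subunits of that complex, which switches off RHEB, the direct activator of mTORC1. *DEPTOR* encodes a protein that binds mTOR and inhibits it, and *EIF4EBP1* encodes 4E-BP1, which blocks cap-dependent translation until mTORC1 phosphorylates it. These 9 genes were chosen by name as stress-induced or constitutive brakes on mTORC1 signaling, with earlier results of these data known. All 9 were listed among the 13559 genes of the first experiment and the 14024 genes of the second. mRNA was measured, so nothing here is a measure of mTORC1 activity.

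The cells were LN229, an established human glioblastoma line. In the first experiment, LN229 cells with no compound were kept in regular culture or in an ischemic culture that combined low nutrients with low oxygen. In the second, LN229 cells in each of those cultures received DMSO (the solvent control), VX745 (an inhibitor of the stress kinase p38α) or MK25 (an inhibitor of MK2, a kinase that p38α activates). Each of the 8 groups held 2 libraries, 16 in all. The labels do not say whether the libraries of a group came from separate cultures, so the p-values measure only the spread between these libraries, which may be technical. Between 20122017 and 37562668 reads per library lay on the listed genes. Of 8 markers of glioma lines, 8 were listed in both experiments, with *VIM*, *CD44* and *NES* high and *GFAP* at no more than 1.06 log2 CPM. Of 12 markers of immune, endothelial, neuronal and epithelial cells, 2 were listed in the first experiment, against 3 in the other, and *PTPRC*, *PECAM1* and *EPCAM* were listed in neither. The summed level of those listed, mostly *SYT1*, was higher in ischemic culture (80.8 to 82.6 CPM against 16.8 to 18 in the first experiment, and 67.1 to 68.1 against 20.5 to 21.5 with DMSO in the second). In ischemic culture it was 56.6 to 57.4 CPM with VX745 and 46.9 to 54.2 with MK25, below DMSO, and its part in the results, between cultures or compounds, was not tested. The summed level of the 8 glioma markers was also higher in ischemic culture. In the first experiment it was 8170 to 8320 CPM against 4530 to 4580. With DMSO in the second it was 7120 to 7140 against 4030 to 4360. In ischemic culture it was likewise below DMSO, at 6390 to 6400 with VX745 and 5820 to 5910 with MK25. Levels are log2 normalized CPM (log2 CPM), the reads of a gene scaled to the size of its library, and are therefore relative to its other genes, so more transcripts of a gene per cell and a larger share of cells that express it cannot be told apart.

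A gene is said here to pass the test at an adjusted p under 0.05 by limma, and to be called when the fold change was also at least 2 between cultures or at least 1.5 between compounds. Means are given with their standard deviation (SD, n = 2), and fold changes with their standard error (SE).

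The bases before the transcription start are shown for *DDIT4* and *SESN2*, the members called between compounds, and for *TSC2*, a member whose level differed between cultures and did not pass the test between compounds. The stretches are 250 bases long, come from RefSeq on GRCh38.p14, lie on the plus strand and end just before the first base of the gene. They are chr10:72273674-72273923 for *DDIT4*, chr1:28259268-28259517 for *SESN2* and chr16:2047735-2047984 for *TSC2*. Capitals mark matches to 5 short motifs searched on both strands, which were the hypoxia response cores ACGTG and GCGTG, the CARE core TGATGNAA that C/EBP-ATF dimers such as those of ATF4 bind, the CRE TGACGTCA, and the E box CACGTG, which contains ACGTG on both strands.
DDIT4: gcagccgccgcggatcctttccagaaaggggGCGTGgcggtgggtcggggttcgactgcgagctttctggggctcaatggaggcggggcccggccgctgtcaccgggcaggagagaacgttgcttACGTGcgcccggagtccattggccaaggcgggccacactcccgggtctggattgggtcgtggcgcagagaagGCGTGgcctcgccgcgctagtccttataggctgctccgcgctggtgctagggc
SESN2: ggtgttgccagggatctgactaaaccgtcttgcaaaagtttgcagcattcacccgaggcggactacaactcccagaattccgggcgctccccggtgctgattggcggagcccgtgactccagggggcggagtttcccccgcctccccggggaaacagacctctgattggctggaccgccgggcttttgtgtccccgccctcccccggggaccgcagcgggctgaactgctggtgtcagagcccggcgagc
TSC2: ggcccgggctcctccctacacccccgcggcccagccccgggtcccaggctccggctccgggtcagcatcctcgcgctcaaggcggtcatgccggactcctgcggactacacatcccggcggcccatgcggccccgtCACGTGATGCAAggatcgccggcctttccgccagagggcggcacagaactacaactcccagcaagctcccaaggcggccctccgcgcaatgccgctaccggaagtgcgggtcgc
In the 300 bases from 250 before to 50 after the start, *DDIT4* held ACGTG at -125 to -121 and GCGTG at -219 to -215, at -53 to -49 and at 26 to 30. Over 35116 RefSeq promoters of the same length, 21.4% held ACGTG and 36.5% held GCGTG, so neither is rare. *TSC2* held an E box at -114 to -109 that ran into a CARE core at -110 to -103. The E box occurred in 7.3% of promoters, the CARE core in 3.6% and the CRE in 1.8%. None of the 5 motifs matched in the windows of *SESN1*, *SESN2*, *SESN3* or *TSC1*, which says only that these letters are not in these windows. The window of *TSC1* belongs to an inner start site. Its upstream bases, chr9:132944617-132944866, lie inside the span of the gene given below.

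Per length of transcript the brakes spanned a wide range of levels. In regular culture of the first experiment, *EIF4EBP1* came first with 133 CPM per kb of its canonical transcript, followed by *DDIT4* with 69.5 and *TSC2* with 19.7. *SESN2* had 5.80 CPM per kb and *TSC1* 3.73, and the other 4 genes lay between 0.981 (*DEPTOR*) and 1.57 (*SESN1*). In ischemic culture *DDIT4* came first with 1740 CPM per kb, and *EIF4EBP1* was second with 268. The order of the other genes also changed, with *CASTOR2* last at 0.326. Among the sestrins, *SESN2* had the highest level per kb in all 8 groups. With DMSO it had 7.37 CPM per kb in regular culture, against 1.47 for *SESN1* and 1.18 for *SESN3*, and 40.4 in ischemic culture, against 1.31 and 0.53. *DDIT4* alone took 0.239% and 0.353% of the reads of the ischemic libraries of the first experiment, against 0.0123% and 0.0139% in the regular ones.

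**Figure D1:**
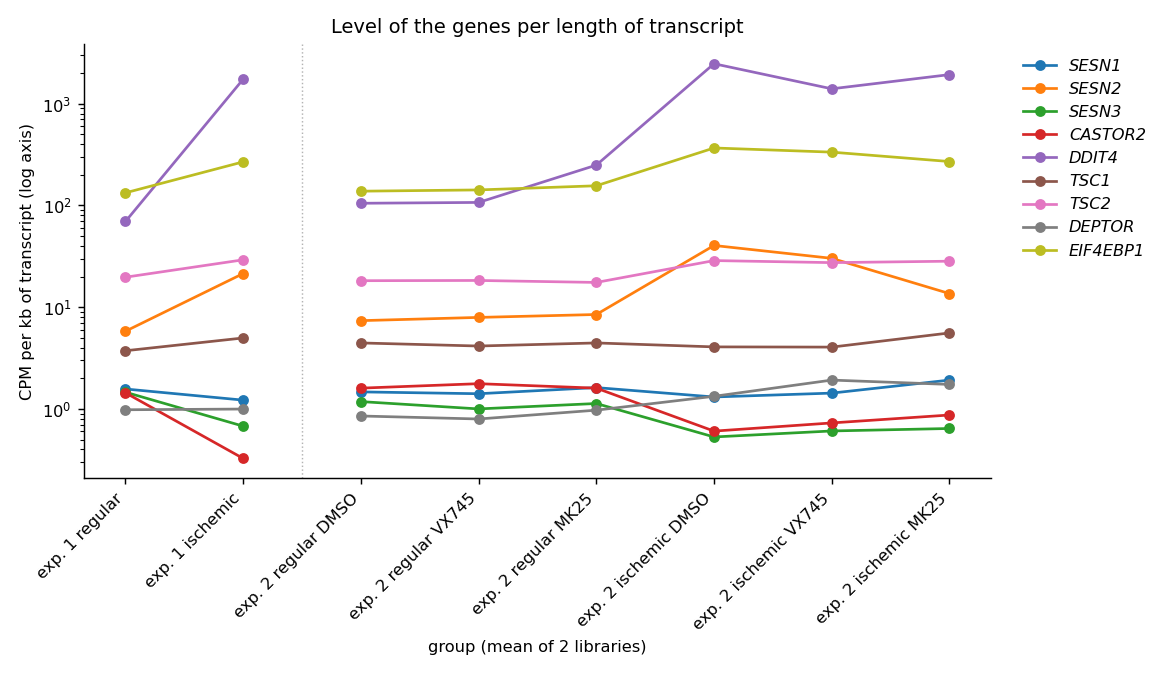
Mean level of each gene in CPM per kb of canonical transcript (log axis) in the 8 groups, with lines joining groups of the same experiment. *DDIT4* passes *EIF4EBP1* in ischemic culture, where it reaches 1740 CPM per kb in the first experiment and 2470 with DMSO in the second, and also in regular culture with MK25 (249 against 156 CPM per kb), and *SESN2* passes *TSC2* only in ischemic culture with DMSO or VX745.

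The first comparison asked what ischemic culture does to these genes. *DDIT4*, *SESN2* and *EIF4EBP1* rose and *SESN3* and *CASTOR2* fell, each by 2-fold or more, in both experiments. *DDIT4* rose most, by 25-fold in the first experiment and by 23.6-fold with DMSO in the second. *TSC2* rose by less than 2-fold in both, and *SESN1*, *TSC1* and *DEPTOR* each passed the test in only 1 of the experiments. Of the 9 genes, 5 were called in the first experiment (3 up and 2 down), where 20.4% of all genes were called, and 5 in the second (3 up and 2 down), where 17.1% were. At any size, 8 and 7 passed the test, beside 70.4% and 69.6% of all genes. The median log2 fold change of the 9 was 0.42 and 0.64, and that of all genes was -0.01 in both. As the 9 were chosen with earlier results of these data known, these counts and medians are a description only.

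Of the sestrins, *SESN2*, known as the stress-inducible member and as a target of ATF4, was the one that rose. Its level in the first experiment was 6.67 and 5.75 log2 CPM in ischemic culture and 4.35 and 4.31 in regular culture. With DMSO in the second experiment it was 7.05 and 7.20 in ischemic and 4.64 and 4.71 in regular culture. The ischemic libraries were above the regular ones in both experiments, and the 2 ischemic libraries of the first experiment stood well apart from each other (6.21 ± 0.65, SD, n = 2). The log2 fold change was 1.88 (SE 0.20, adjusted p = 4.24e-06) in the first and 2.45 (SE 0.08, adjusted p = 1.66e-14) in the second experiment. Dropping each library of the first experiment in turn gave values between 1.42 and 2.34.

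*SESN3*, which FOXO factors are known to induce, fell instead. In the first experiment it was at 2.62 and 2.76 log2 CPM in ischemic and 3.71 and 3.90 in regular culture, and with DMSO in the second at 2.27 and 2.41 against 3.36 and 3.64. All ischemic libraries were below all regular ones. The log2 fold change was -1.11 (SE 0.13, adjusted p = 7.96e-06) and -1.16 (SE 0.13, adjusted p = 3.51e-07). *SESN1*, best known as a p53 target, differed less. It was at 2.90 and 2.68 log2 CPM against 3.08 and 3.23 in the first experiment, a log2 fold change of -0.36 (SE 0.14, adjusted p = 0.0347) that no longer passed the test without ischemic replicate 2 (-0.25), regular replicate 1 (-0.43) or regular replicate 2 (-0.29). With DMSO in the second experiment the ischemic libraries, at 3.19 and 2.60, lay on either side of the regular ones, both at 3.05 (log2 fold change -0.16, 95% confidence interval -0.50 to 0.18, adjusted p = 0.396). Without ischemic DMSO replicate 1 it passed the test at -0.45 (adjusted p = 0.0186).

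*CASTOR2*, the arginine-sensing family member, fell most of the 9. Its level in the first experiment was 1.43 and 1.37 log2 CPM in ischemic and 3.46 and 3.63 in regular culture, the lowest of those libraries resting on 53 reads. With DMSO in the second experiment it was 2.28 and 2.30 against 3.55 and 3.84. The groups did not overlap in either experiment. It fell by 2.14 on the log2 scale (SE 0.15, adjusted p = 1e-07) and by 1.40 (SE 0.13, adjusted p = 2.62e-08). Reads of *CASTOR2* are uncertain in part, since 11.65% of the 31-base words of its canonical transcript also occur in other genes, chiefly *GTF2IP1*, *GTF2IP4* and *CASTOR3P*, and 11.83% of its exonic bases overlap *RCC1L* on the opposite strand, which a library kit that does not mark strand cannot separate.

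*DDIT4*, the hypoxia-inducible brake that acts through the TSC complex, showed the widest gap of the 9 between cultures. In the first experiment it was at 11.26 and 11.86 log2 CPM in ischemic culture, from 67890 and 78935 reads, and at 6.83 and 7.01 in regular culture, from 2810 and 3614 reads. With DMSO in the second experiment it was at 12.03 and 12.11 against 7.48 and 7.54. That gap was far wider than the spread within any group. The log2 fold change was 4.64 (SE 0.14, adjusted p = 5.99e-11) and 4.56 (SE 0.05, adjusted p = 3.5e-20). In the first experiment the ischemic library with more *DDIT4* was the one with less *SESN2*.

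The subunits of the TSC complex differed from each other. *TSC2*, which carries the GTPase-activating domain, was at 7.47 and 7.63 log2 CPM in ischemic and 6.90 and 7.06 in regular culture of the first experiment, and at 7.53 and 7.52 against 6.84 and 6.89 with DMSO in the second. It rose by 0.57 (SE 0.08, adjusted p = 3.64e-05) and by 0.66 (SE 0.06, adjusted p = 1.59e-08) on the log2 scale. *TSC1*, the subunit that stabilizes *TSC2* protein, was at 5.39 and 5.44 against 4.93 and 5.08 in the first experiment (log2 fold change 0.42, SE 0.09, adjusted p = 0.000891), and at 5.13 and 5.13 against 5.23 and 5.28 with DMSO in the second (-0.13, SE 0.07, adjusted p = 0.136). The intervals, 0.23 to 0.60 in the first and -0.29 to 0.03 in the second experiment, did not overlap, and the difference between the experiments was not tested. Of the exonic bases of *TSC2*, 12.22% overlap *PKD1* on the opposite strand. After *TSC2* and *CASTOR2*, the largest such overlaps were 9.61% for *DEPTOR*, with *DEPTOR-AS1*, and 4.29% for *SESN1*.

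*DEPTOR*, the inhibitor that sits on mTOR itself, differed between cultures in the second experiment. It was at 1.08 and 1.63 log2 CPM in ischemic and 1.13 and 1.54 in regular culture of the first experiment, and these groups overlapped fully (log2 fold change 0.02, 95% confidence interval -0.51 to 0.56, adjusted p = 0.937). With DMSO in the second experiment it was at 1.73 and 1.81 against 0.98 and 1.27, and it rose by 0.64 (SE 0.18, adjusted p = 0.00387). Each of those 8 libraries held 52 to 101 reads of it, and the interval of the first experiment did not reach the value of the second. *EIF4EBP1*, the translation repressor, was at 7.76 and 7.83 log2 CPM in ischemic and 6.87 and 6.70 in regular culture of the first experiment, and at 8.18 and 8.31 against 6.83 and 6.85 with DMSO in the second. It rose by 1.01 (SE 0.07, adjusted p = 1.49e-07) and by 1.41 (SE 0.07, adjusted p = 1.08e-11). The fold change of the first experiment, 2.01, stood at the threshold for a call. It fell below that without ischemic replicate 2 (log2 value 0.97) or regular replicate 2 (0.92), and after median centring or quantile normalization (0.97 and 0.90).

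**Figure D2:**
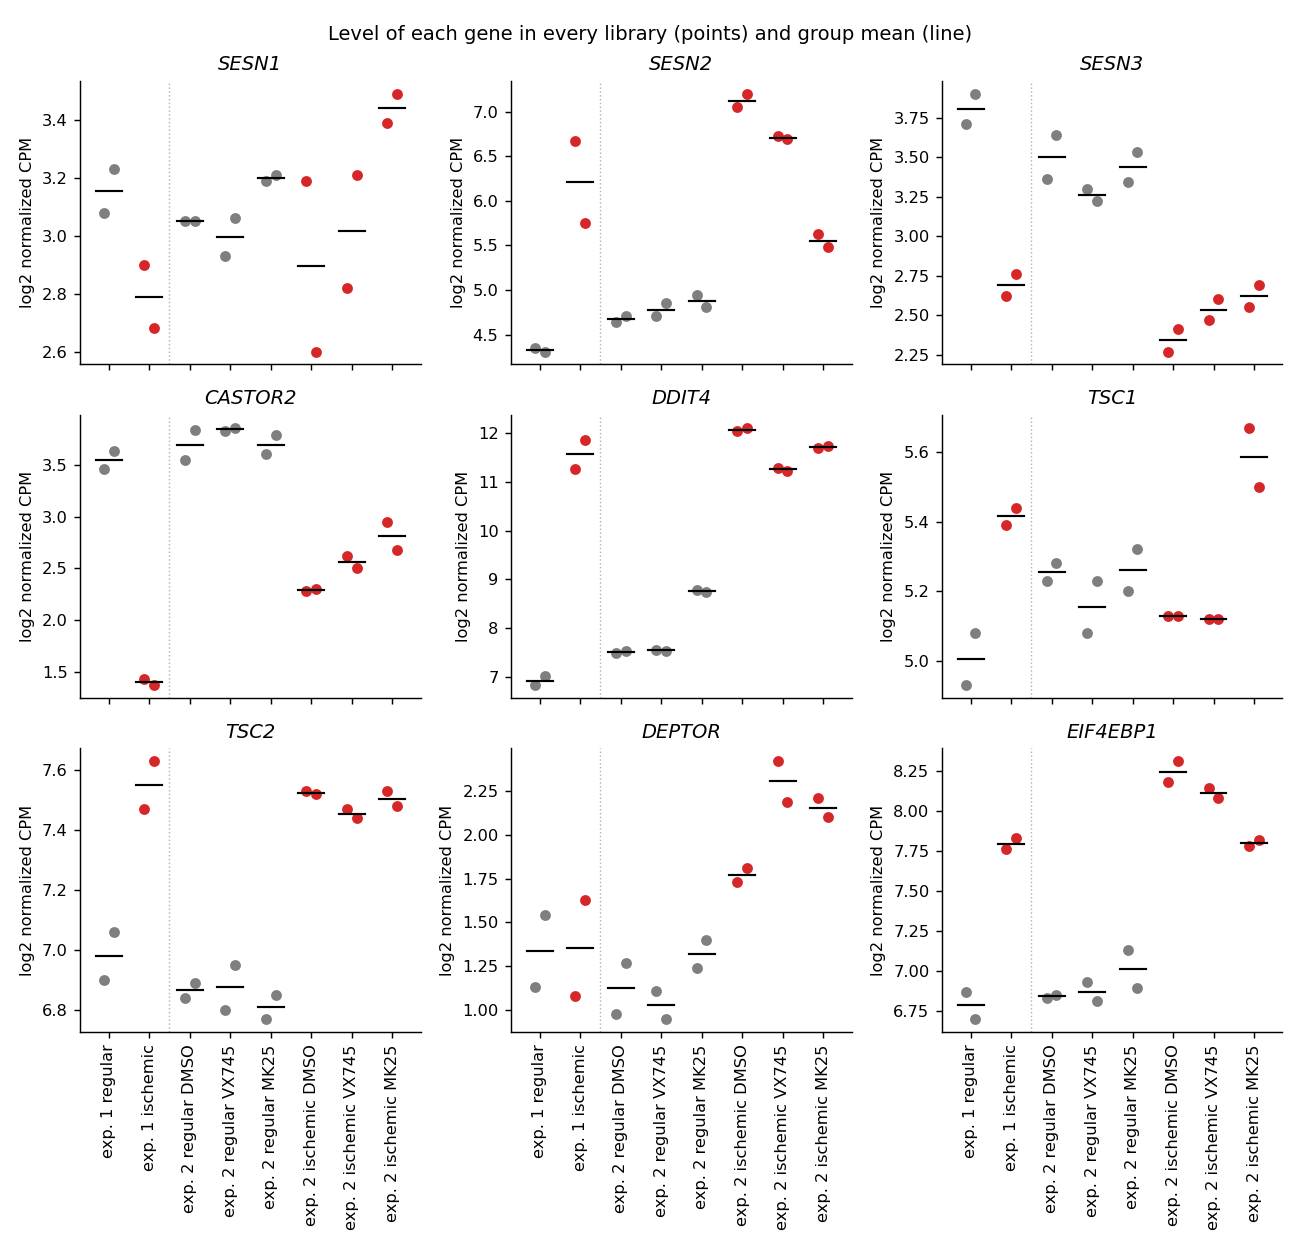
Level of each of the 9 genes in every library in log2 normalized CPM (points, grey for regular and red for ischemic culture), with the group mean as a line and a dotted line between the experiments, which were normalized apart. *DDIT4*, *SESN2*, *EIF4EBP1* and *TSC2* are higher in every ischemic library than in any regular library of the same experiment, and *SESN3* and *CASTOR2* are lower.

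The second experiment also asked whether the response to ischemic culture was the same when p38α or MK2 was inhibited. With VX745, 5 of the 9 genes were called between ischemic and regular culture (4 up and 1 down), beside 14.5% of all genes, and 7 passed the test at any size, beside 66.6%. With MK25 only *DDIT4* was called, beside 13.9% of all genes, while 8 passed at any size, beside 67.2%. *DDIT4* rose by 4.56 with DMSO, 3.71 with VX745 and 2.96 with MK25 on the log2 scale (SE 0.05 in each), which is 23.6-fold, 13.1-fold and 7.75-fold. *SESN2* rose by 2.45, 1.93 and 0.68 (SE 0.08 in each), or 5.48-fold, 3.81-fold and 1.60-fold. *EIF4EBP1* rose by 1.41, 1.24 and 0.79 (SE 0.07 in each). *CASTOR2* fell by 1.40, by 1.28 and by 0.88 (SE 0.13 in each), and *SESN3* fell by 1.16, by 0.73 and by 0.82 (SE 0.13 in each). For *TSC2* the rise was 0.66, 0.58 and 0.70 (SE 0.06 in each), and for *DEPTOR* 0.64, 1.27 and 0.84 (SE 0.18 in each). *TSC1* passed the test only with MK25 (0.33, SE 0.07, adjusted p = 0.000995), and *SESN1* with neither compound (adjusted p = 0.915 with VX745 and 0.192 with MK25).

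**Figure D3:**
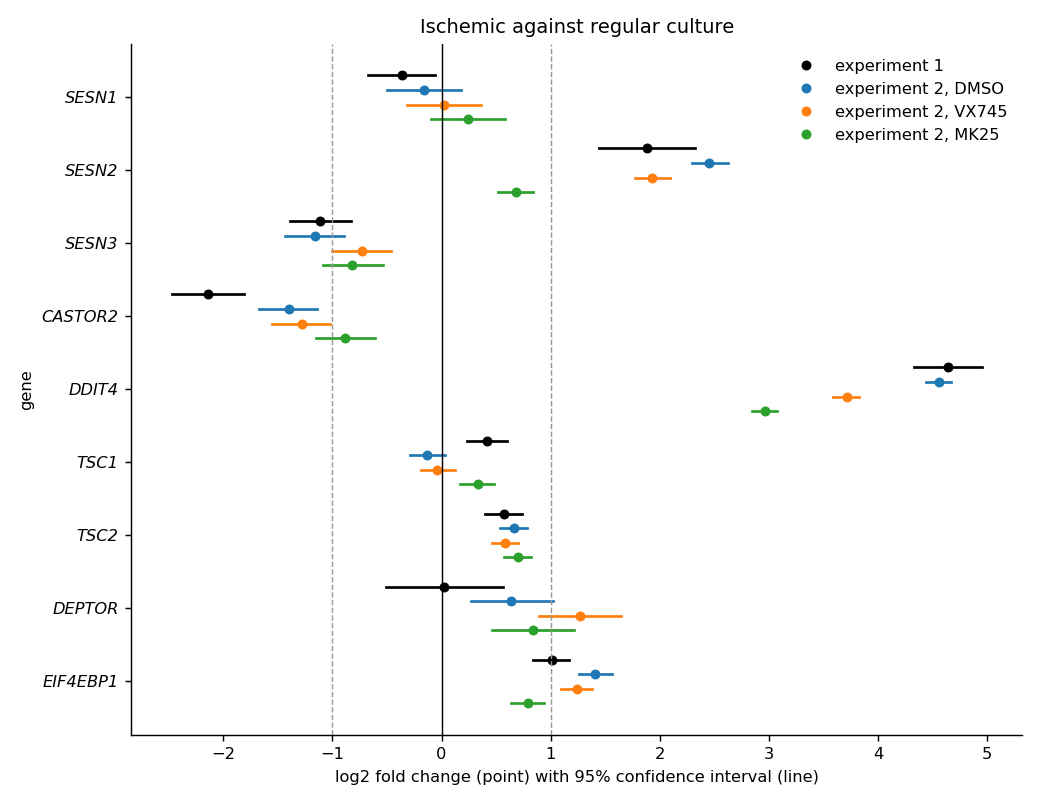
Log2 fold change between ischemic and regular culture (points) with its 95% confidence interval (lines) for the 9 genes, in the first experiment and with DMSO, VX745 and MK25 in the second, with dashed lines at a 2-fold change. The rise of *SESN2* is 1.60-fold with MK25 against 5.48-fold with DMSO, and that of *DDIT4* is 7.75-fold against 23.6-fold, while the values of *TSC2* lie between 0.57 and 0.70 throughout.

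The difference between these responses was tested as the interaction of compound and culture, that is, the change with the inhibitor in ischemic culture minus that in regular culture. Both interactions share the DMSO libraries. For VX745, 2 genes passed (both down), beside 11.8% of all genes, and these were *DDIT4* (-0.85, SE 0.08, adjusted p = 9.43e-06) and *SESN2* (-0.52, SE 0.11, adjusted p = 0.0063). The value for *SESN2* no longer passed when the variance was not modelled on expression level (adjusted p = 0.0535). For MK25, 5 genes passed (2 up and 3 down), beside 24.4% of all genes. *SESN2* (-1.77, SE 0.11, adjusted p = 9.99e-09), *DDIT4* (-1.60, SE 0.08, adjusted p = 1.02e-09) and *EIF4EBP1* (-0.61, SE 0.10, adjusted p = 0.000337) had a smaller rise with MK25. Most of the value for *DDIT4* came from regular culture, where it differed from DMSO by 1.25, against -0.36 in ischemic culture. For *SESN2* these differences were 0.20 and -1.57, and for *EIF4EBP1* 0.17 and -0.44. *TSC1* had an interaction of 0.45 (SE 0.11, adjusted p = 0.005) and *CASTOR2* of 0.53 (SE 0.18, adjusted p = 0.0408). That of *CASTOR2* did not pass after quantile normalization (0.41, adjusted p = 0.127), without a variance trend (adjusted p = 0.0678) or with voom on the recovered reads (adjusted p = 0.0685). It also did not pass with only the groups compared (adjusted p = 0.069) or with some single libraries left out. The intervals for *TSC2* were -0.25 to 0.09 with VX745 and -0.14 to 0.21 with MK25.

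Within ischemic culture, both compounds lowered *DDIT4* and *SESN2*, to different degrees. *DDIT4* was 1.76-fold lower with VX745 and 1.28-fold lower with MK25, and *SESN2* 1.33-fold and 2.98-fold. With VX745, 1 gene was called against DMSO (*DDIT4*, down), beside 5.26% of all genes, and 3 passed at any size, beside 28.9%. With MK25, 1 was called (*SESN2*, down), beside 9.67%, and 6 passed at any size, beside 41.7%. The DMSO libraries are shared by both comparisons. *SESN2* was at 7.05 and 7.20 log2 CPM with DMSO, 6.73 and 6.69 with VX745, and 5.63 and 5.48 with MK25. No library of a group overlapped another group, in the order DMSO, VX745, MK25. MK25 lowered it by 1.57 on the log2 scale (fold change -1.57, SE 0.08, adjusted p = 2.57e-10) and VX745 by less (-0.42, SE 0.08, adjusted p = 0.000761). *DDIT4* was at 12.03 and 12.11 with DMSO, 11.28 and 11.23 with VX745, and 11.70 and 11.73 with MK25, so here VX745 gave the lowest levels. The log2 fold change was -0.82 with VX745 (SE 0.05, adjusted p = 4.05e-08) and -0.36 with MK25 (SE 0.05, adjusted p = 6.62e-05). Quantile normalization brought these values to -0.52 and -0.15, the first then under the fold change of 1.5.

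The direct test of MK25 against VX745 in ischemic culture gave 1 called gene of the 9 (*SESN2*, down), beside 3.96% of all genes, and 4 that passed at any size, beside 18.4%. *SESN2* was lower with MK25 (log2 fold change -1.16, SE 0.08, adjusted p = 1.08e-08) and *DDIT4* higher (0.46, SE 0.05, adjusted p = 1.02e-05). *TSC1* was at 5.67 and 5.50 log2 CPM with MK25, above 5.12 and 5.12 with VX745 and 5.13 and 5.13 with DMSO. Its log2 fold change was 0.46 (SE 0.07, adjusted p = 0.000267) against VX745 and 0.45 (SE 0.07, adjusted p = 0.000138) against DMSO. *EIF4EBP1* was at 7.78 and 7.82 with MK25, below 8.14 and 8.08 with VX745 and 8.18 and 8.31 with DMSO, with -0.31 (SE 0.07, adjusted p = 0.00515) and -0.44 (SE 0.07, adjusted p = 0.000103). The difference from VX745 did not pass without a variance trend (-0.31, adjusted p = 0.053) or without ischemic VX745 replicate 1 (-0.28, adjusted p = 0.063). The 2 compounds act on different kinases, so these are differences between the treatments as used.

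The other changes in ischemic culture were under 1.5-fold. *CASTOR2* was at 2.95 and 2.68 log2 CPM with MK25, 2.62 and 2.50 with VX745, and 2.28 and 2.30 with DMSO. It was higher with MK25 (0.52, SE 0.13, adjusted p = 0.00331), a difference that did not pass without ischemic MK25 replicate 1 (0.39, adjusted p = 0.062), and with VX745 the difference was 0.27 (adjusted p = 0.126). *SESN1* was at 3.39 and 3.49 with MK25 and 3.19 and 2.60 with DMSO (0.55, SE 0.16, adjusted p = 0.0116), a result that rested on ischemic DMSO replicate 2, since without it the value was 0.25 (adjusted p = 0.235), and without ischemic MK25 replicate 2 the adjusted p was 0.0747. *DEPTOR* was at 2.42 and 2.19 with VX745 and 1.73 and 1.81 with DMSO (0.53, SE 0.18, adjusted p = 0.0334), and it no longer passed with any of the 4 libraries left out (adjusted p = 0.0635 to 0.238) or after quantile normalization (0.36, adjusted p = 0.146). For *SESN3* the difference from DMSO was 0.20 with VX745 (adjusted p = 0.269) and 0.28 with MK25 (adjusted p = 0.0923), and for *TSC2* -0.07 (adjusted p = 0.41) and -0.02 (adjusted p = 0.808).

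In regular culture *DDIT4* with MK25 was the one difference from DMSO that passed the test among the 9 genes and both compounds. With VX745, 0 of the 9 were called or passed by limma, 0 had an unadjusted p under 0.05, and voom on the recovered reads also called 0. The background there was 0.0998% of genes called and 0.335% passing at any size. With MK25, 1 was called and 1 passed (*DDIT4*), beside 2.49% and 12.2% of all genes. *DDIT4* was at 8.78 and 8.74 log2 CPM with MK25, 7.55 and 7.54 with VX745, and 7.48 and 7.54 with DMSO. MK25 raised it 2.37-fold (log2 fold change 1.25, SE 0.05, adjusted p = 2.5e-11), whereas in ischemic culture it was lower with MK25 than with DMSO. With VX745 the difference from DMSO was 0.03 (95% confidence interval -0.08 to 0.15, adjusted p = 0.816). *SESN2* was at 4.94 and 4.81 with MK25 and 4.64 and 4.71 with DMSO, a difference of 0.20 that did not pass (adjusted p = 0.0979). *EIF4EBP1* differed by 0.17 (adjusted p = 0.125), and without regular MK25 replicate 2 by 0.29 (adjusted p = 0.0181).

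**Figure D4:**
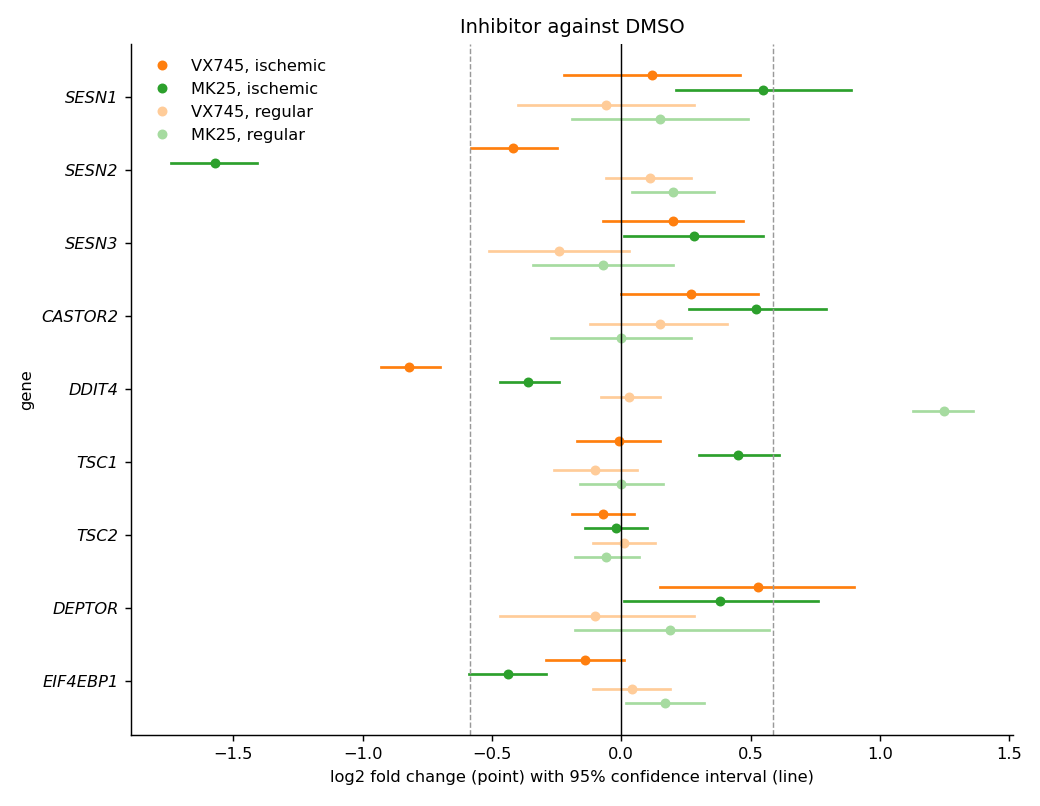
Log2 fold change against DMSO (points) with its 95% confidence interval (lines) for VX745 and MK25 in ischemic culture (full colours) and regular culture (pale), with dashed lines at a 1.5-fold change. *SESN2* stands at -1.57 with MK25 in ischemic culture, and *DDIT4* at -0.82 with VX745 in ischemic culture and at 1.25 with MK25 in regular culture.

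Across the 6 groups of the second experiment, *DDIT4* ran in the order ischemic DMSO, ischemic MK25, ischemic VX745, regular MK25, regular VX745 and regular DMSO, from a mean of 12.07 ± 0.06 to 7.51 ± 0.04 log2 CPM (SD, n = 2). The last 2 of these, with means of 7.55 and 7.51, were not separated by the test (adjusted p = 0.816). *SESN2* ran from 7.13 ± 0.11 with DMSO through 6.71 ± 0.03 with VX745 to 5.55 ± 0.11 with MK25 in ischemic culture, and the 3 regular groups below them (4.87, 4.78 and 4.67) overlapped with their neighbours. For *CASTOR2* the regular groups overlapped at 3.70 to 3.85, and the ischemic ones ran from 2.82 with MK25 to 2.29 with DMSO. *TSC2* formed only an upper set of ischemic groups at 7.46 to 7.52 and a lower set of regular groups at 6.81 to 6.88. *EIF4EBP1* held the order ischemic DMSO, VX745 and MK25 (8.24, 8.11 and 7.80) above the regular groups, which overlapped at 6.84 to 7.01.

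The genes whose pattern was most like that of *SESN2* and *DDIT4* were found by the root mean square difference of centred log2 levels over the 12 libraries of the second experiment, among 10053 genes with a mean of at least 3 log2 CPM. Closest to *SESN2* were *MYC* (difference 0.18), *XBP1* (0.23), *ETS1* (0.24), *ATF3* (0.26) and *KLF5* (0.28). *XBP1*, a transcription factor of the unfolded protein response, had a log2 fold change of 2.43 with ischemia in DMSO and of -1.17 with MK25 in ischemic culture, and *MYC* had 1.93 and -1.20. Closest to *DDIT4* were *HK2* (0.18), *VEGFA* (0.21), *PTGS2* (0.28), *BEND5* (0.28) and *TRIB3* (0.29). *HK2*, a hexokinase of glycolysis, and *VEGFA*, an angiogenic growth factor, are well-known hypoxia targets, and *TRIB3*, an inhibitor of AKT, is a target of ATF4 and CHOP. *HK2* had 4.12 with ischemia in DMSO, -0.51 with VX745 and -0.17 with MK25 in ischemic culture, and 1.33 with MK25 in regular culture. *VEGFA* had 3.91, -0.51, -0.12 and 0.92 in the same order. The 12 points fall into separate ischemic and regular clusters and share libraries, so likeness is given as a description only.

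**Figure D5:**
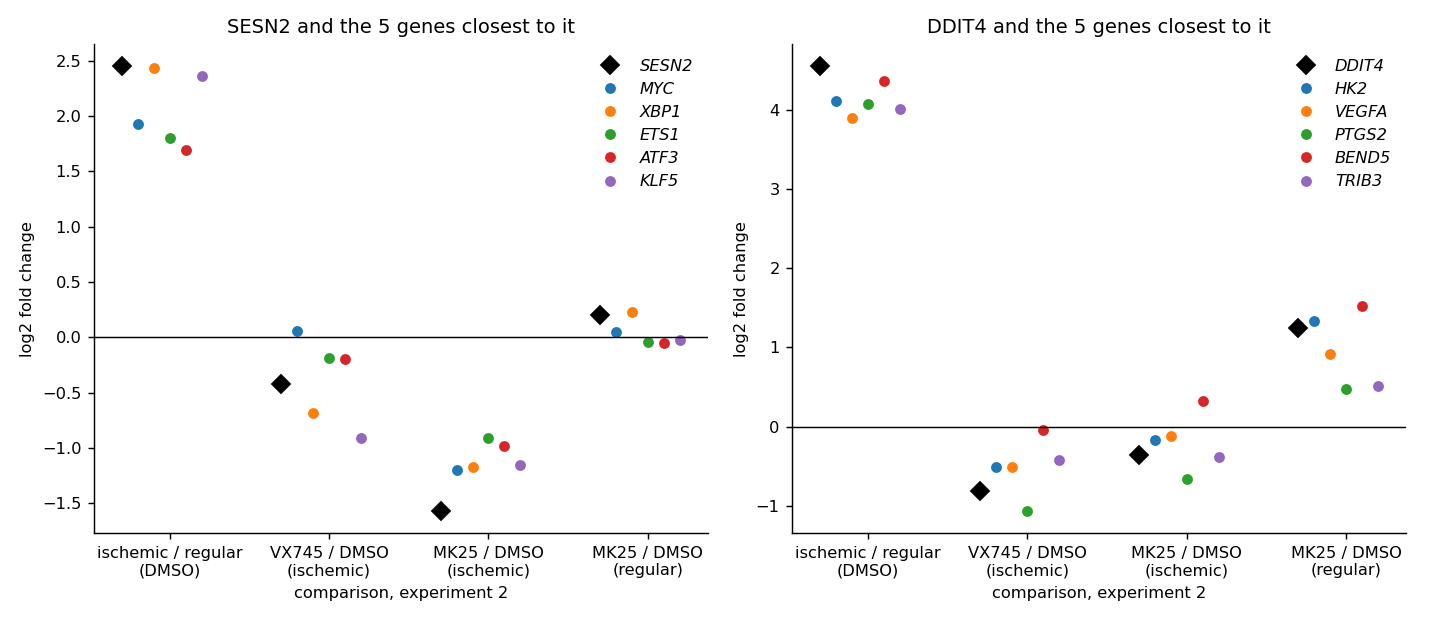
Log2 fold changes of *SESN2* (left) and *DDIT4* (right), as black diamonds, and of the 5 genes closest to each, as circles, in 4 comparisons of the second experiment. The genes beside *SESN2* all lie below 0 with MK25 in ischemic culture, from -1.20 to -0.91, and those beside *DDIT4* all lie above 0 with MK25 in regular culture, from 0.47 to 1.53. They were picked for likeness over the same libraries, so this describes them only. With VX745 in ischemic culture *MYC* alone of its set lies above 0 (0.06, against -0.42 for *SESN2*). With MK25 in ischemic culture *BEND5* alone of its set does (0.32, against -0.36 for *DDIT4*).

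The rest of the pathway was described by 7 lists, chosen like the members with earlier results of these data known, and by counts of called genes in ischemic culture of the first experiment and with DMSO in the second. Each share of a list is to be read beside the 20.4% and 17.1% of all genes called in those comparisons. Of 16 other genes of amino acid sensing (GATOR1, GATOR2, KICSTOR and further sensors), 1 was called up and 2 down in the first experiment, and 1 was called, down, in the second (18.8% and 6.25% of the list, beside 20.4% and 17.1% of all genes). The median log2 fold change was -0.12 and -0.21. *KICS2*, a subunit of KICSTOR, the scaffold of GATOR1, fell in both (-1.36, SE 0.16, adjusted p = 8.77e-06, and -1.12, SE 0.14, adjusted p = 1.01e-06). Of 12 genes of the Rag GTPases, Ragulator and folliculin, 4 were called up and 1 down in the first experiment and 1 was called, up, in the second (41.7% and 8.33%, beside 20.4% and 17.1%), with a median of 0.84 and 0.32. *RRAGD*, *FNIP1*, *RRAGC* and *FNIP2* (up) and *LAMTOR1* (down) were called in the first and *RRAGA* (up) in the second. *RRAGA* also passed the test in the first, at 0.86, short of the 2-fold limit, and the difference between the experiments was not tested.

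Of 15 genes around the TSC complex, RHEB and AMPK, 4 were called in the first experiment, against 3 in the other, each of them up (26.7% and 20.0% of the list, beside 20.4% and 17.1% of all genes), with a median of 0.11 in both. *DDIT4L*, the paralogue of *DDIT4*, rose by 4.20 (SE 0.46, adjusted p = 4.66e-06) and by 3.03 (SE 0.49, adjusted p = 2.94e-05) on the log2 scale. *BNIP3*, a hypoxia-induced protein that can bind RHEB, rose by 4.16 (SE 0.08) and by 4.24 (SE 0.07), and *PRKAA2*, a catalytic subunit of AMPK, by 2.58 (SE 0.11) and by 2.09 (SE 0.10). *BNIP3* went with *DDIT4* in regular culture, where MK25 raised it by 1.90 (SE 0.07, adjusted p = 5.86e-12), and its interaction with MK25 was -2.08 (SE 0.10, adjusted p = 1.07e-09). Of 11 genes of the insulin, PI3K and AKT input, 3 were called up and 1 down in the first experiment and 2 up and 1 down in the second (36.4% and 27.3%, beside 20.4% and 17.1%). *IRS1* fell by 2.06 and by 1.76, whereas *IRS2* rose by 1.86 and by 1.53, so the 2 main insulin receptor substrates went in opposite directions. *TRIB3* rose by 4.15 and by 4.02.

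Of the mTOR complex genes, 3 of 10 were called in the first experiment and 1 of 11 in the second, each up (30.0% and 9.09% of the list, beside 20.4% and 17.1% of all genes), with a median of -0.39 and -0.13. *PRR5L*, a partner of mTORC2, was the one called in both (2.03, SE 0.18, and 1.70, SE 0.14). Of 16 outputs of mTORC1, 2 were called up and 2 down in the first experiment and 2 up and 1 down in the second (25.0% and 18.8%, beside 20.4% and 17.1%). *EIF4EBP2*, the paralogue of *EIF4EBP1*, fell by 1.37 (SE 0.09, adjusted p = 5.59e-08) and by 1.53 (SE 0.06, adjusted p = 7.05e-13), opposite to *EIF4EBP1*. *PDCD4*, an inhibitor of translation initiation, rose by 1.39 and by 1.47, and *GRB10*, an adaptor that restrains insulin signaling, by 1.66 and by 1.32. In ischemic culture *LPIN1*, a phosphatidate phosphatase, was higher with MK25 than with DMSO (1.29, SE 0.07, adjusted p = 5.91e-10).

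Of 15 factors known to induce one or another of the brakes, 5 were called up and 2 down in the first experiment and 5 up and 1 down in the second (46.7% and 40.0% of the list, beside 20.4% and 17.1% of all genes), with a median of 0.62 and 0.43. *ATF4*, the main transcription factor of the integrated stress response, rose by 1.54 (SE 0.07, adjusted p = 1.56e-09) and by 1.77 (SE 0.06, adjusted p = 6.59e-14). *DDIT3* (CHOP), a factor downstream of it, rose by 2.12 (SE 0.16) and by 1.84 (SE 0.08), and *EPAS1* (HIF2α) by 3.59 (SE 0.11) and by 2.44 (SE 0.09). *HIF1A* (HIF1α) was slightly lower (-0.19, SE 0.07, adjusted p = 0.0256, and -0.20, SE 0.06, adjusted p = 0.00947). *EIF2AK4* (GCN2) fell by 1.24 (SE 0.07) and by 0.54 (SE 0.06), called in the first experiment only. *NUPR1*, a stress-induced chromatin protein, rose by 4.28 (SE 0.37) and by 4.32 (SE 0.32). The FOXO factors split, with *FOXO3* up by 1.45 and by 1.15 and *FOXO1* down (-1.37, SE 0.16, and -1.25, SE 0.13). The interaction with VX745 was -0.45 (SE 0.09, adjusted p = 0.00413) for *ATF4* and -0.88 (SE 0.11, adjusted p = 0.000214) for *DDIT3*. With MK25 it was -0.89 (SE 0.09, adjusted p = 2.36e-06) and -0.95 (SE 0.11, adjusted p = 1.57e-05). In ischemic culture VX745 lowered *DDIT3* (-0.90, SE 0.08, adjusted p = 7.15e-07). MK25 raised *EPAS1* in regular (0.92, SE 0.09, adjusted p = 1.84e-06) and ischemic culture (0.67, SE 0.09, adjusted p = 2.02e-05). It raised *NUPR1* in both as well (1.65, SE 0.32, adjusted p = 0.00234, and 1.00, SE 0.32, adjusted p = 0.0178).

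The genes lie apart from each other in the genome, as RefSeq places them on GRCh38. *SESN1* spans chr6:108984309-109094846, *SESN2* chr1:28259518-28282491 and *SESN3* chr11:95165513-95232475. *CASTOR2* spans chr7:74964705-75031528, *DDIT4* chr10:72273924-72276036, *TSC1* chr9:132891349-132945378 and *TSC2* chr16:2047985-2089491. *DEPTOR* and *EIF4EBP1* are both on chromosome 8, at 119873722 to 120050918 and at 38030534 to 38060365. *DDIT4* has 3 exons and 1744 bases in its GENCODE canonical transcript, and *TSC2* has 42 exons in 6415 bases.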

How the data were processed

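RNA from LN229 cells was made into libraries with kits that do not mark strand (SMART-Seq mRNA HT and Nextera XT). Per the labels and the study's methods, the authors aligned the reads with HISAT2 to GRCh38 and normalized with edgeR in Galaxy; the counting program is not given in the sources used here. The authors deposited log2 normalized CPM for each library, in 1 table per experiment, normalized apart.

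The deposited log2 values were used unchanged. Undoing the logarithm put 100% of values on whole reads (within 0.1 read), which gave the depth. Because the deposited values were log2 normalized CPM, a count test was not chosen as the main test, although the methods name one. limma (3.58.1 in R 4.3.3; lmFit with 1 mean per group, eBayes with a variance trend) was fitted to all genes of a table, two-sided, with Benjamini-Hochberg adjustment over all genes, and was checked on simulated data. CPM per kb used the GENCODE v44 canonical transcript. Motifs and upstream bases came from RefSeq promoters (GRCh38.p14), which matched 6 of the 9 symbols used; figures used Python 3.11.15. Entrez identifiers matched a symbol for 99.4% and 99.3% of genes.

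The 9 members, the 7 lists and the markers were chosen with earlier results of these data known. Members were named in every comparison, and the 5 most alike genes were named for *SESN2* and *DDIT4*. List genes were named when called in ischemia of both experiments or in a comparison of compounds (at most 5 per list and comparison, and not all are named). A few other list genes were named beside them. Column names of the second experiment end in S1 and S2, read as replicates 1 and 2.

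Alternatives were a filter at a mean of 1 CPM, median centring, quantile normalization, no variance trend, a replicate block, voom on the recovered reads, only the groups compared, any fold change, and each library left out.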

Additional observations from a re-analysis of the deposited data

Results flagged for a closer look

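For 7 interactions of compound and culture, the test of the difference itself passed (limma, Benjamini-Hochberg over 14024 genes). By that test, the change with the inhibitor was not the same in ischemic and in regular culture. With VX745 these were *SESN2* (-0.52) and *DDIT4* (-0.85), where 11.8% of all genes passed. With MK25 they were *SESN2* (-1.77), *DDIT4* (-1.60), *EIF4EBP1* (-0.61), *CASTOR2* (0.53) and *TSC1* (0.45), where 24.4% of all genes passed. The interaction of *SESN2* with VX745 did not pass without a variance trend (limma, adjusted p = 0.0535). That of *CASTOR2* with MK25 did not pass there (adjusted p = 0.0678), after quantile normalization (adjusted p = 0.127) or in several other alternatives. *DDIT4* is the one whose change with MK25 passed the test in both cultures, in opposite directions (1.25 in regular and -0.36 in ischemic culture). Those of *TSC1* (0.45) and *EIF4EBP1* (-0.44) passed in ischemic culture, where in regular culture the differences were 0.00 and 0.17.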

How the results depend on the processing

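Of 684 alternatives to 99 results for single members, other than leaving out a library, 11 moved a result across the threshold, and of 468 that left out a library, 20 did; 0 reversed a direction that had passed. With any fold change counted, the members that passed became 8 for ischemia in the first experiment, 8 for ischemia with MK25, 3 for VX745 and 6 for MK25 in ischemic culture, and 4 for MK25 against VX745. The share of all genes that passed was 70.4%, 67.2%, 28.9%, 41.7% and 18.4%, in the same order. Quantile normalization left 0 called for VX745 in ischemic culture, and without a variance trend the VX745 interaction kept 1. With 1 library left out, the count ran from 1 to 2 for ischemia with MK25 (*CASTOR2* at -1.01 without ischemic MK25 replicate 1), from 1 to 2 for MK25 against DMSO in ischemic culture (*SESN1* at 0.84 without ischemic DMSO replicate 1 and 0.60 without ischemic MK25 replicate 1, *CASTOR2* at 0.66 without ischemic MK25 replicate 2), and from 1 to 2 for MK25 against VX745 (*SESN1* at 0.63 without ischemic VX745 replicate 2). These fits leave a lone library in 1 group, which is assumed to vary like the others.

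Same-numbered libraries did not all deviate together (r from -0.266 to 0.325 over 15 pairs of groups in the second experiment, 4 of them over 0.1). In the first experiment, the only pair of groups gave 0.271. As r was positive in some pairs and negative in others, it cannot show whether any same-numbered libraries were prepared together. The main test assumed no such pairing. With the replicate block, the 99 results kept their side of the threshold, and the members called numbered 5 for ischemia in the first experiment, 5 with DMSO and 5 with VX745.

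Depth limits *DEPTOR*, *CASTOR2*, *SESN3* and *SESN1*, with 42 to 415 reads per library.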
